A study of Mus musculus with 27 samples.

Results

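Oxidative phosphorylation is carried out by 5 protein complexes of the inner mitochondrial membrane, and the nuclear genes of their subunits were followed here in CT26 tumors after knockout of Mettl3 or Mettl14. The members were the protein-coding genes whose mouse symbols start with Ndufa, Ndufb, Ndufc, Ndufs, Ndufv, Uqcr, Cox4 to Cox8, Atp5 or Sdh. The Ndufaf and Sdhaf assembly factors and the pseudogenes were left out. The symbols gave 86 genes of the 54752 counted: 38 of complex I, 4 of complex II, 8 of complex III, 18 of complex IV and 18 of complex V. Of the 86, 85 had reads, and the gene at 0 reads in every library was a second model of Atp5o that overlaps the first. They were picked by symbol, with earlier results of these data known.

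CT26 is a mouse colon carcinoma line, transplanted under the skin of BALB/c mice, so a tumor library holds RNA of the grafted cells together with RNA of the host's blood vessels, stroma and immune cells. Mettl3 and Mettl14 encode the catalytic and the RNA-binding partner of the enzyme that writes N6-methyladenosine on mRNA. The 15 RNA-seq libraries came from 5 tumors each labelled Mettl3 KO, Mettl14 KO and control, the control cells having been transduced with a control guide RNA. All 3 groups share the line, the host strain and the antibody schedule. The series design states anti-PD-1 therapy, whereas the protocol names anti-CTLA-4 and/or anti-PD1 and IgG at 200 µg (10 mg/kg) a dose between day 11 and day 23 and does not tie an antibody to a sample. Samples with Mettl14 in the title have Mettl4 as their genotype entry, and the title was followed. The labels do not say whether a knockout was 1 clone or a pool of edited cells. Whether the 5 tumors of a group grew in separate mice is not said, so each p-value covers sample-to-sample spread that may be technical. Of the 86 members 31 share exon bases with another gene, 27 of them on the other strand, and whether counting used strand is not given in the sources used here. Among members described below, values of Ndufa2, Ndufa4l2, Ndufb2, Ndufb11, Ndufs1, Uqcrb, Cox4i1, Cox6a2, Atp5a1, Atp5d, Atp5f1, Atp5g2, Atp5j, Atp5l and Atp5o are therefore uncertain. The 12 immunoprecipitation and input samples were not used here.

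Complex I takes electrons from NADH and passes them to ubiquinone, and complex II does the same with electrons from succinate, a step of the citric acid cycle. Complex III moves the electrons to cytochrome c, and complex IV hands them to oxygen. The proton gradient built by complexes I, III and IV drives complex V, the ATP synthase. All complexes but II also hold subunits encoded in the mitochondrial genome. The nuclear factors NRF1, the GABP protein GABPA, ESRRA, YY1 and SP1 are known to act at promoters of such genes.

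The promoters are shown as background, because these factors are known from such promoters. The part of the factors in the members' levels was not tested. RefSeq promoter windows (GRCm38.p6) were matched by symbol for 67 members, and the 250 bases before the transcription start were searched on both strands. The motif GCGCANGCG, for NRF1, was found in 14 of 67 members (20.9%), against 8% of 17492 protein-coding genes. For GABPA the motif CCGGAAG was found in 12 of 67 members (17.9%), against 10.2% of protein-coding genes. For ESRRA the motif AAGGTCA was found in 5 of 67 (7.5%), against 4.2%. The YY1 motif AAGATGG was found in 1 of 67 (1.5%), against 4.8%, and the SP1 motif GGGCGG in 24 of 67 (35.8%), against 45.8%. In 27 of the 67 windows none of the 5 motifs was found, and 1 pair of matches to different motifs overlapped. A match is a run of letters and not a measured binding site. The windows of 6 members follow, 5′ to 3′ on the gene's strand, with motif matches in capitals. Sdhd has an NRF1 and a GABPA match, Cox6a1 has NRF1 matches in 2 stretches (1 of them matching on both strands), 1 GABPA and 2 SP1 matches, Uqcrh has 1 GABPA match, Atp5l has 1 match each to NRF1, GABPA and ESRRA, Atp5b has 2 SP1 matches, and Cox8b, a muscle and brown fat isoform, has none.
Sdhd (chr9:50603850-50604099, minus strand): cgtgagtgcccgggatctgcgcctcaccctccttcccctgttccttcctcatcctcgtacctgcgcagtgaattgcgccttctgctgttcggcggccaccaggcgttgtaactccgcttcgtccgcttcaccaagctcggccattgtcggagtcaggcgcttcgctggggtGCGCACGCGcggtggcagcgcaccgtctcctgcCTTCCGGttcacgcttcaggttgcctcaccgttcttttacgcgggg
Cox6a1 (chr5:115348959-115349208, minus strand): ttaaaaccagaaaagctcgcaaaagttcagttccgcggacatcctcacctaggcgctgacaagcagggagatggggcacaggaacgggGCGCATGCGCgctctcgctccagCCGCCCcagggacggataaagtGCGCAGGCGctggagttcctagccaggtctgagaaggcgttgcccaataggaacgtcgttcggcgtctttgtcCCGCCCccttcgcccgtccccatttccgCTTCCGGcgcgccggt
Uqcrh (chr4:116075071-116075320, minus strand): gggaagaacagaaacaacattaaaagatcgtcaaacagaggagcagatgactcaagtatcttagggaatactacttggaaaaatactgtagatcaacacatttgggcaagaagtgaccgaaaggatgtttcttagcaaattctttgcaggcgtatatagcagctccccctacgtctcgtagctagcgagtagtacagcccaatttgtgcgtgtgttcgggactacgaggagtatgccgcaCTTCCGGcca
Atp5l (chr9:44920743-44920992, minus strand): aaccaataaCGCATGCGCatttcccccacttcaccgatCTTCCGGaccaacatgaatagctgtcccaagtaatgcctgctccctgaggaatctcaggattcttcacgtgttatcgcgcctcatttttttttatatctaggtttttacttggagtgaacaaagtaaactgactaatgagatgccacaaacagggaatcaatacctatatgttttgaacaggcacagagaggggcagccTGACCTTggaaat
Atp5b (chr10:128083057-128083306, plus strand): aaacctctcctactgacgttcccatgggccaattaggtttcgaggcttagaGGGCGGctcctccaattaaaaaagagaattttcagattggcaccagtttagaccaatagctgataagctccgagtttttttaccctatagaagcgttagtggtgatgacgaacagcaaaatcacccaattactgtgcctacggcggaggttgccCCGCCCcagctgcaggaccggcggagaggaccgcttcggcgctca
Cox8b (chr7:140900447-140900696, minus strand): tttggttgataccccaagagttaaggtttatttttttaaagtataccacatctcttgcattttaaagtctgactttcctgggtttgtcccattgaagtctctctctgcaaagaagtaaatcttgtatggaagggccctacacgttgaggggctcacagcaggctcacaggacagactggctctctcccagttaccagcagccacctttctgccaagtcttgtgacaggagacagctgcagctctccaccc

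Library depth differed between the groups. Reads assigned to genes numbered 4354273 to 9332032 in the Mettl3 KO libraries, 6452364 to 17022057 in the Mettl14 KO libraries and 5520340 to 20978633 in the control libraries. Reads on no gene, as a share of uniquely placed reads, were 60.2 to 78.0% in Mettl3 KO, 53.6 to 65.9% in Mettl14 KO and 44.3 to 78.6% in control tumors. Control replicate 1 held the highest share of all 15 and stood apart from the other 4 controls, which reached 53.8%. Counts of members called are given with and without it, and values of single genes mostly with it only. Mettl3 itself was measured at 13.4, 16.2, 12.4, 13.1 and 13.4 CPM in Mettl3 KO tumors, against 13.2, 21.2, 19.6, 20.2 and 22.8 CPM in controls (log2 fold change -0.56 ± 0.15 SE, edgeR adjusted p = 0.0545). Only control replicate 1 overlapped the knockout range. Mettl14 was measured at 58.3, 52.4, 79.6, 48.9 and 67.1 CPM in Mettl14 KO tumors, against 66.5, 89.5, 66.4, 61.3 and 61.5 CPM in controls (log2 fold change -0.21 ± 0.17 SE, adjusted p = 0.735), and the groups overlapped. A guide-directed edit need not remove the transcript, and host cells carry both genes unedited, so these levels check the labels only weakly. Of the epithelial markers, Epcam was at 0.352 to 6.12 CPM over the 15 libraries and Krt20 at 29.3 to 213 CPM, and Krt20 fell in Mettl3 KO tumors (log2 fold change -1.76 ± 0.28 SE, adjusted p = 0.0217). The summed epithelial list was 66.9 to 124 CPM in Mettl3 KO and 88.2 to 177 CPM in Mettl14 KO, against 193 to 245 CPM in control tumors, with Krt20 as its most abundant gene. Gene by gene, 2 of 8 tested list genes had a log2 fold change below 0 in Mettl3 KO (median 0.54, and -0.19 relative to genes of like abundance) and 6 of 10 in Mettl14 KO (median -0.37). Epcam was at 1.22 ± 0.78 SE in Mettl3 KO (adjusted p = 0.267). In these bulk samples fewer cells of a type and less RNA per cell cannot be told apart.

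The members together took 0.257 to 0.521% of the reads on genes in Mettl3 KO, 0.404 to 0.571% in Mettl14 KO and 0.356 to 0.630% in control tumors. Levels are CPM, counts scaled to library size after trimmed-mean (TMM) normalization over the 15 libraries. The summed CPM of the members was 3034, 4771, 3854, 2955 and 4875 in the Mettl3 KO libraries. It was 5149, 3570, 5069, 5683 and 4420 in the Mettl14 KO libraries, and 3129, 6067, 5780, 5563 and 6644 in the control libraries. Every Mettl3 KO library lay under controls 2 to 5, and control replicate 1 lay inside the Mettl3 KO range. Group means were 3898 ± 916 CPM in Mettl3 KO, 4778 ± 811 CPM in Mettl14 KO, against 5437 ± 1352 CPM in control tumors (SD, n = 5 each). Without control replicate 1 the control mean was 6014 ± 468 CPM (SD, n = 4). The 8 libraries with the lowest sums were the 8 with the highest share of reads outside genes. The part of that share in the differences was not tested.

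**Figure D1:**
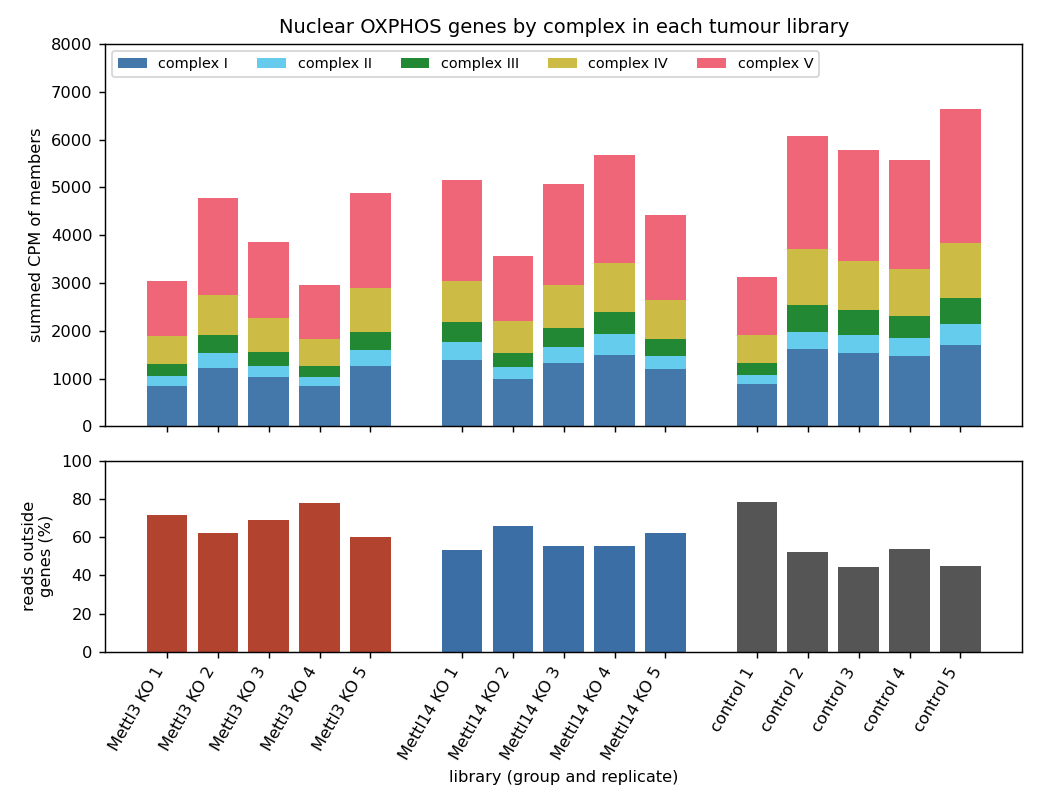
Summed CPM of the members in each library, stacked by complex (upper panel), and the percent of uniquely placed reads on no gene (lower panel, colored by group), for the Mettl3 KO, Mettl14 KO and control tumors, 1 bar per library. The bars differ in height from 2955 to 6644 CPM, and control replicate 1 is low at 3129 CPM with 78.6% of its reads outside genes.

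The proportions between the complexes stayed close to constant while the total moved. Complex V held 40.1 ± 1.95% of the members' CPM in Mettl3 KO, 40.3 ± 1.29% in Mettl14 KO and 40.2 ± 1.43% in control tumors (SD, n = 5 each). Complex I held 26.9 ± 1.19% in Mettl3 KO, 26.8 ± 0.640% in Mettl14 KO and 26.6 ± 0.996% in controls. For complex IV the shares were 18.4 ± 0.644% in Mettl3 KO, 17.7 ± 0.733% in Mettl14 KO and 18.2 ± 0.811% in controls. Group means of the complex I and V shares lay within 1 SD of each other. Complex III held 8.01 ± 0.384% in Mettl3 KO, 8.15 ± 0.245% in Mettl14 KO and 8.46 ± 0.549% in controls. Complex II held 6.56 ± 0.330% in Mettl3 KO, 7.03 ± 0.423% in Mettl14 KO and 6.48 ± 0.347% in controls. For every complex the group ranges overlapped.

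Because the shift between libraries differed with the abundance of the genes, each member was also set against genes of like abundance. For each library the deviation of log2(CPM + 0.5) from the gene's own mean was taken, and the median over the members was recorded. That median was -0.51, 0.05, -0.22, -0.49 and 0.08 in the Mettl3 KO libraries, 0.15, -0.31, 0.07, 0.30 and -0.05 in the Mettl14 KO libraries, and -0.52, 0.33, 0.34, 0.28 and 0.47 in the control libraries. After subtracting the median deviation of genes of like abundance in the same library, it was -0.02, 0.01, -0.01, -0.07 and 0.08 in Mettl3 KO. It was then -0.05, -0.20, -0.03, 0.14 and -0.04 in Mettl14 KO and -0.20, 0.14, 0.12, 0.06 and 0.20 in control tumors. The pooled SD within groups was 0.31 before and 0.12 after the subtraction. The median over single members narrowed too: their SD within groups had a median of 0.37 on the log2 scale and 0.22 relative to like abundance. For other genes of like abundance it was 0.23. The narrowing did not hold for every member, and the SD rose from 0.48 to 0.81 for Cox6a2 and from 0.26 to 0.53 for Cox7a1. Among the controls, 74 of the 85 members with reads were lowest in replicate 1, whose median of -0.52 became -0.20 relative to like abundance. That count was not made for other genes, so it cannot be read as particular to the members.

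**Figure D2:**
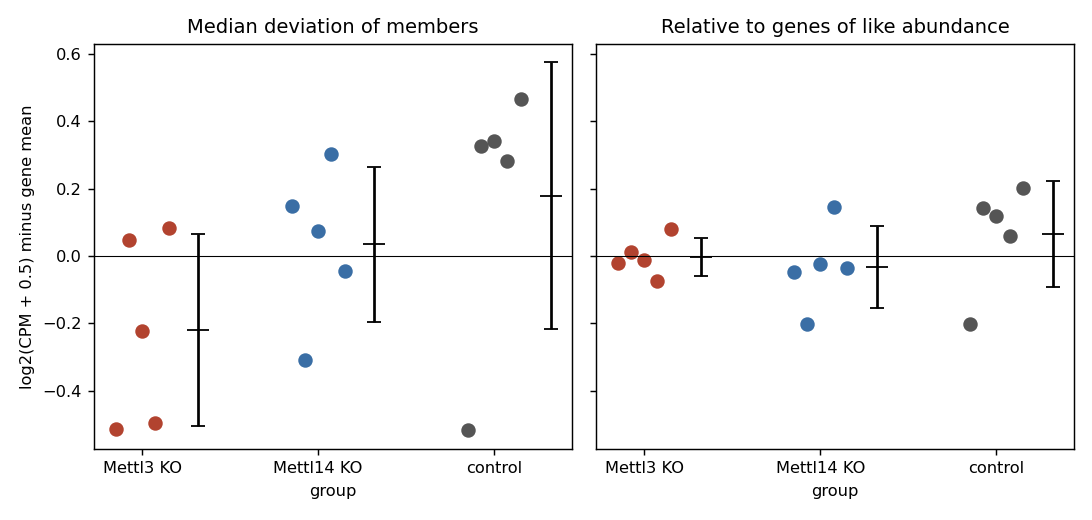
Median over the members of the per-library deviation of log2(CPM + 0.5) from each gene's mean (left panel), and the same after subtracting the median deviation of genes of like abundance (right panel); points are libraries, and dashes with bars are the mean ± SD of 5 libraries in the Mettl3 KO, Mettl14 KO and control groups. The left panel spans -0.52 to 0.47, and the right panel spans -0.20 to 0.20.

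Mettl3 KO tumors were compared with controls gene by gene with edgeR's quasi-likelihood test. Of the 86 members 81 passed the filter on low counts, and none had an adjusted p under 0.05. Over all 21427 genes tested, 0.835% were called lower in Mettl3 KO, and 1.9% of genes of like abundance. The lowest adjusted p among the members was 0.0523, for Uqcrh. In all, 78 of 81 members had a log2 fold change below 0, with a median of -0.50, whereas the median over all genes tested was -0.14. Genes within the members' own abundance range (10th to 90th percentile, 6678 genes) had a median of -0.45, and 89.8% of them were below 0. Set against the median of its own abundance bin, the members' median was -0.06, with 53 of 81 below 0. At an unadjusted p under 0.05, 50 of 81 members (61.7%) were lower, against 27% of all genes and 54.4% of genes of like abundance. By DESeq2, 9 of 79 members were called lower, against 11.1% of all genes and 16.6% of genes of like abundance. limma voom called 12 of 81 lower, against 12.4% of all genes and 24.8% of genes of like abundance. By both tools the members' share (11.4% and 14.8%) was below that of genes of like abundance. Under a loess offset on abundance, which centers every abundance range on 0, the members' median was -0.09. Of the members named by rule, leaving aside those added later, 11 then changed sign in Mettl3 KO, among them Atp5b, Atp5l, Cox4i2 and Ndufa4l2.

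**Figure D3:**
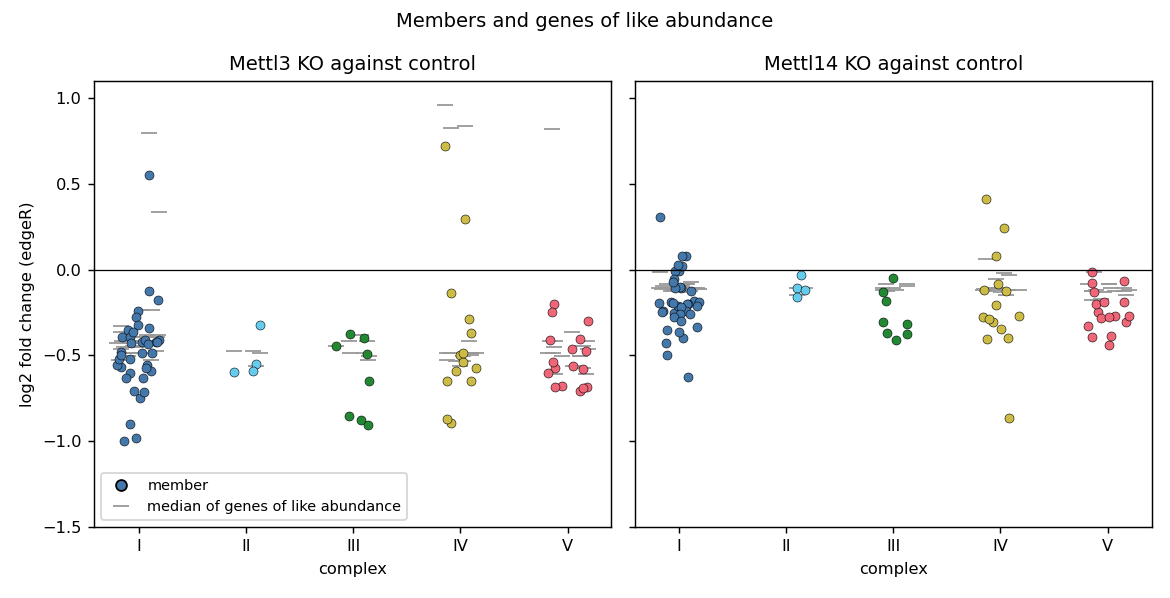
edgeR log2 fold change of each tested member (points) by complex in Mettl3 KO against control (left) and Mettl14 KO against control (right); the gray dash beside a point is the median log2 fold change of genes of like abundance. In Mettl3 KO most members sit close to their dash near -0.5, and in Mettl14 KO the median of the points is -0.21.

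The calls depended on control replicate 1. No member had every Mettl3 KO library under every control library (1.54% of all genes and 2.65% of genes of like abundance did), but 39 of 81 (48.1%) had every Mettl3 KO library under controls 2 to 5, against 18.1% of all genes and 34.7% of genes of like abundance. Refitted without control replicate 1, edgeR called 37 of 81 members lower (45.7%), against 15.4% of all genes and 32.2% of genes of like abundance. This refit called 11625 of 22535 genes in either direction. Controls 2 to 5 had 44.3 to 53.8% of reads outside genes, against 60.2 to 78.0% in Mettl3 KO. With control replicate 1 left out, the knockout and that share therefore cannot be told apart. Of the 37, 16 were in complex I, 2 in complex II, 5 in complex III, 5 in complex IV and 9 in complex V. The lowest were Ndufa4 (log2 fold change -0.98 ± 0.18 SE, adjusted p = 0.00179) and Ndufa2 (-0.98 ± 0.21 SE, adjusted p = 0.00258). In this fit 1 member was higher, Cox4i2 (1.33 ± 0.45 SE, adjusted p = 0.0237). Called higher were 36.2% of all genes and 5.47% of genes in the members' abundance range, under which Cox4i2 lies. Relative to genes of its own abundance Cox4i2 was at -0.80. The median log2 fold change of the members was then -0.43, and -0.09 relative to like abundance.

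Mettl14 KO tumors were tested in the same way. None of 82 members was called by edgeR, DESeq2 or limma voom. The share of all genes called lower was 0% by edgeR, 0.323% by DESeq2 and 0% by voom. Values below 0 on the log2 scale were found for 74 of 82 members (90.2%), against 60.8% of all genes and 68.6% of genes of like abundance. The members' median was -0.21, against -0.09 over all genes and -0.11 over genes of like abundance. Relative to like abundance the median was -0.10, with 61 of 82 below 0. Unadjusted p was under 0.05 with a lower level for 2 of 82 (2.44%), Ndufb2 and Ndufa4, against 6.6% of all genes and 11.1% of genes of like abundance. No member had every Mettl14 KO library under every control (0.673% of all genes and 0.686% of genes of like abundance did), and 10 of 82 (12.2%) had them all under controls 2 to 5, against 6.3% of all genes and 10.2% of genes of like abundance. Without control replicate 1, edgeR called 2 of 82 (2.44%), against 2% of all genes and 3.28% of genes of like abundance. They were Ndufa4 (log2 fold change -0.81 ± 0.20 SE, adjusted p = 0.0459) and Atp5j2, subunit f of the ATP synthase (-0.56 ± 0.14 SE, adjusted p = 0.0470).

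The 2 knockouts share their control samples, so they were also set against each other directly in a fit over all 15 libraries. None of 82 members was called between Mettl3 KO and Mettl14 KO by edgeR, DESeq2 or voom, where 0%, 0.0796% and 0% of all genes were called lower in Mettl3 KO. The members' median log2 fold change was -0.27, and 0.03 relative to like abundance. At an unadjusted p under 0.05, 2 of 82 were lower in Mettl3 KO, against 8.04% of all genes and 17.3% of genes of like abundance: Uqcrq (log2 fold change -0.63 ± 0.23 SE, adjusted p = 0.349) and Ndufs5 (-0.40 ± 0.18 SE, adjusted p = 0.349).

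Complex I was the largest group, with 38 members tested. In Mettl3 KO 37 of 38 had a log2 fold change below 0 (median -0.48, and -0.05 relative to like abundance), and in Mettl14 KO 33 of 38 (median -0.20, and -0.09 relative). The electron input module holds the flavin-carrying Ndufv1 and the iron-sulfur subunits Ndufv2 and Ndufs1. Ndufs1 was at 57.8, 83.5, 83.5, 72.8 and 111 CPM in Mettl3 KO, 98.7, 75.4, 120.3, 103 and 105 CPM in Mettl14 KO, against 82.8, 154, 125, 108 and 125 CPM in controls. Control replicate 1 lay within the Mettl3 KO range, and of the other controls only replicate 4 was passed by a Mettl3 KO library, replicate 5. For Ndufs1 the log2 fold change was -0.59 ± 0.18 SE (adjusted p = 0.0643) in Mettl3 KO and -0.27 ± 0.16 SE (adjusted p = 0.559) in Mettl14 KO. Ndufs8, an iron-sulfur subunit on the path of electrons to quinone, stood at -0.63 ± 0.20 SE (adjusted p = 0.0692) on the log2 fold change scale in Mettl3 KO and -0.25 ± 0.18 SE (adjusted p = 0.697) in Mettl14 KO.

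Ndufa4, counted with complex I by its name but now regarded as a subunit of complex IV, had the lowest log2 fold change of the members in Mettl3 KO. It was at 24.3, 33.5, 29.1, 16.1 and 28.3 CPM in Mettl3 KO and 35.7, 19.3, 37.1, 43.8 and 30.8 CPM in Mettl14 KO, against 19.1, 65.8, 48.5, 47.4 and 71.7 CPM in control tumors. All 10 knockout libraries lay under controls 2 to 5, and control replicate 1 lay among them. The log2 fold change was -0.998 ± 0.29 SE (adjusted p = 0.0579) in Mettl3 KO and -0.63 ± 0.28 SE (adjusted p = 0.431) in Mettl14 KO. Genes of like abundance were at -0.45 in Mettl3 KO and -0.11 in Mettl14 KO. The accessory subunit Ndufa2, on chromosome 18, was at 17.0, 40.1, 22.0, 18.3 and 30.7 CPM in Mettl3 KO and 50.0, 24.4, 28.5, 51.6 and 21.3 CPM in Mettl14 KO, against 15.8, 42.8, 54.0, 62.1 and 67.1 CPM in control tumors. Its log2 fold change was -0.98 ± 0.33 SE (adjusted p = 0.0763) in Mettl3 KO. Per kilobase of exon it was the highest of complex I, at 44.8, 61.5 and 84.5 CPM per kb in Mettl3 KO, Mettl14 KO and control tumors. The accessory subunit Ndufb2 was at 18.3, 14.8, 17.7, 18.6 and 18.7 CPM in Mettl14 KO, against 16.7, 25.7, 22.6, 22.9 and 22.4 CPM in controls, and had the lowest p of the members there (log2 fold change -0.36 ± 0.12 SE, adjusted p = 0.288).

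Complex II is the only complex with no mitochondrially encoded subunit. Its summed CPM was 256 ± 65.0 in Mettl3 KO, 337 ± 69.7 in Mettl14 KO and 354 ± 96.7 in control tumors (SD, n = 5 each). Sdha, which binds the flavin, was at 90.2, 159.7, 110.2, 90.6 and 168 CPM in Mettl3 KO and 185, 132, 180.0, 179 and 147 CPM in Mettl14 KO, against 107, 185, 189, 174 and 211 CPM in controls. Each Mettl3 KO value lay under controls 2 to 5, replicates 1 and 4 lay under every control, while the Mettl14 KO values overlapped the controls. The membrane anchor Sdhd was at 37.6, 63.7, 45.1, 31.2 and 53.8 CPM in Mettl3 KO and 71.4, 44.5, 57.6, 84.3 and 48.2 CPM in Mettl14 KO, against 26.4, 73.6, 71.6, 74.7 and 88.2 CPM in controls, with control replicate 1 under every other library. Log2 fold changes in Mettl3 KO were -0.55 ± 0.21 for Sdha, -0.60 ± 0.26 for the iron-sulfur subunit Sdhb, -0.32 ± 0.21 for the anchor Sdhc and -0.59 ± 0.27 for Sdhd (SE, adjusted p from 0.104 to 0.266). In Mettl14 KO all 4 lay between -0.16 and -0.03. The direction of all 4 in Mettl14 KO turned with the scaling, for Sdhd under library totals only.

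Complex III had all 8 members below 0 in both knockouts, with medians of -0.57 in Mettl3 KO and -0.31 in Mettl14 KO, and -0.11 and -0.21 relative to like abundance. The hinge protein Uqcrh, which helps dock cytochrome c1 and cytochrome c, was at 51.5, 81.6, 58.6, 48.9 and 84.2 CPM in Mettl3 KO and 83.9, 72.8, 94.8, 113 and 87.4 CPM in Mettl14 KO, against 59.4, 172, 136, 105 and 117 CPM in control tumors. All Mettl3 KO values lay under controls 2 to 5, and 3 of the 5 also lay under control replicate 1. For Uqcrh the log2 fold change was -0.91 ± 0.23 SE (adjusted p = 0.0524) in Mettl3 KO and -0.41 ± 0.21 SE (adjusted p = 0.492) in Mettl14 KO. Uqcrq, a small subunit, had -0.85 ± 0.24 SE in Mettl3 KO (adjusted p = 0.0574), and Uqcr10, another, -0.88 ± 0.31 SE (adjusted p = 0.0824). The core protein Uqcrc1 was at 43.1, 74.5, 55.6, 37.2 and 67.5 CPM in Mettl3 KO and 87.0, 52.7, 71.6, 80.4 and 53.4 CPM in Mettl14 KO, against 35.7, 52.8, 73.9, 86.2 and 99.4 CPM in controls, and the 3 groups overlapped. Per kilobase Uqcrh was the highest of the complex, at 52.5, 73.1 and 95.3 CPM per kb in Mettl3 KO, Mettl14 KO and control tumors, and Uqcrb followed at 50.9, 53.1 and 64.2.

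Complex IV holds 10 subunits used in most tissues and 7 forms used in few. The 10 common subunits were all below 0 in both knockouts, with medians of -0.52 in Mettl3 KO and -0.27 in Mettl14 KO, and 0.01 and -0.15 relative to like abundance. Cox6b1, which lies where the monomers of the dimeric enzyme meet, was the highest of them per kilobase, at 124, 147 and 173 CPM per kb in Mettl3 KO, Mettl14 KO and control tumors. It was at 75.3, 105, 90.9, 63.7 and 104 CPM in Mettl3 KO and 110.2, 77.9, 97.6, 137 and 98.6 CPM in Mettl14 KO, against 99.0, 139, 115, 124 and 135 CPM in controls. Here control replicate 1 was still the lowest control, and Mettl3 KO replicates 2 and 5 lay above it. The log2 fold change was -0.54 ± 0.15 SE (adjusted p = 0.0539) in Mettl3 KO, where genes of like abundance were at -0.54, and -0.27 ± 0.14 SE (adjusted p = 0.485) in Mettl14 KO. Cox7a2 was at 21.5, 43.6, 32.2, 27.5 and 42.0 CPM in Mettl3 KO and 46.8, 30.4, 44.1, 65.4 and 41.3 CPM in Mettl14 KO, against 22.6, 74.8, 68.7, 56.1 and 71.6 CPM in controls, and its log2 fold change was -0.87 ± 0.28 SE (adjusted p = 0.0672) in Mettl3 KO. At the other end, Cox5b had -0.14 ± 0.17 SE in Mettl3 KO (adjusted p = 0.520), and 0.046 ± 0.17 SE without control replicate 1 (adjusted p = 0.834). Cox7a2l, a supercomplex assembly factor related to Cox7a2, had -0.65 ± 0.23 SE in Mettl3 KO (adjusted p = 0.0824).

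**Figure D4:**
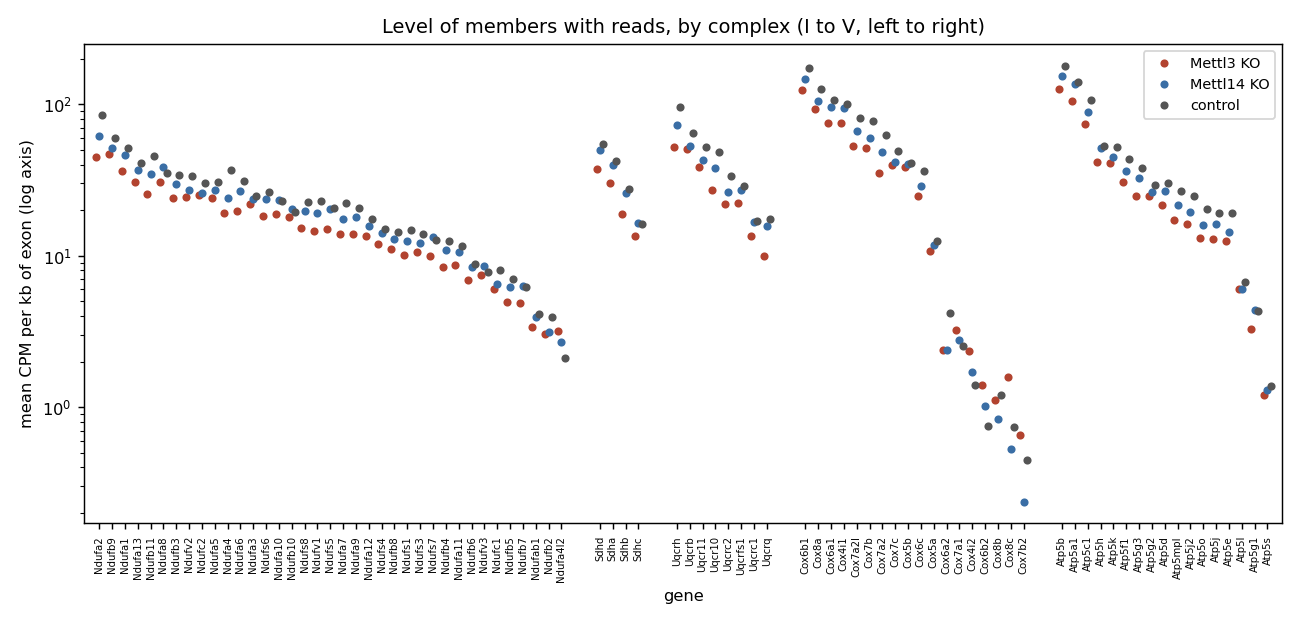
Mean CPM per kilobase of exon of the members with reads, 1 of them not shown (log axis), in Mettl3 KO, Mettl14 KO and control tumors, grouped by complex from I to V and sorted within each. Levels run from under 1 CPM per kb for testis forms such as Cox7b2 to 180 CPM per kb for Atp5b in controls, and for most members the Mettl3 KO point is the lowest of the 3.

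The forms used in few tissues were close to the detection limit, and 3 of them, Cox7b2, Cox8b and Cox8c, were tested in no comparison, nor was Cox6b2 in Mettl3 KO against control. Cox4i2, known from lung and linked to hypoxia, was at 1.81, 1.11, 2.00, 2.61 and 1.70 CPM in Mettl3 KO and 1.06, 0.958, 2.11, 1.88 and 0.706 CPM in Mettl14 KO, against 2.23, 0.578, 1.08, 0.935 and 0.653 CPM in controls. Control replicate 1 was the highest control, and its value lay within the Mettl3 KO range. The log2 fold change was 0.72 ± 0.53 SE (adjusted p = 0.315) in Mettl3 KO, while genes of like abundance stood at 0.96. Ndufa4l2, a relative of Ndufa4 induced by hypoxia, was at 2.49, 2.82, 6.55, 3.55 and 2.07 CPM in Mettl3 KO and 2.88, 4.38, 2.24, 1.41 and 3.73 CPM in Mettl14 KO, against 2.39, 2.31, 1.67, 2.25 and 2.91 CPM in controls, and the groups overlapped. The log2 fold change of Ndufa4l2 was 0.55 ± 0.42 SE (adjusted p = 0.332) in Mettl3 KO and 0.31 ± 0.37 SE (adjusted p = 0.887) in Mettl14 KO. Relative to genes of like abundance it was at -0.25 in Mettl3 KO and 0.32 in Mettl14 KO. As a share of the pair per kilobase Ndufa4l2 made up 14.7 ± 6.7% in Mettl3 KO, 11.1 ± 7.1% in Mettl14 KO and 6.51 ± 4.0% in control tumors (SD, n = 5 each). Control replicate 1 was the highest control at 13.6%.

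The forms of heart and skeletal muscle were also low. Cox6a2 was at 0.907, 2.11, 1.64, 1.49 and 1.95 CPM in Mettl3 KO and 1.88, 1.64, 0.924, 2.04 and 1.61 CPM in Mettl14 KO, against 3.02, 1.16, 1.92, 2.80 and 5.38 CPM in controls (log2 fold change -0.90 ± 0.49 SE (adjusted p = 0.212) in Mettl3 KO and -0.87 ± 0.44 SE (adjusted p = 0.492) in Mettl14 KO). The groups overlapped through controls 2 and 3. Relative to genes of like abundance Cox6a2 was at -1.72 in Mettl3 KO and -0.83 in Mettl14 KO. A list of 14 skeletal muscle markers summed to 62.6 to 1012 CPM in Mettl3 KO, 14.3 to 60.2 CPM in Mettl14 KO, against 54.7 to 423 CPM in control tumors, with log2 fold changes that had medians of 0.39 in Mettl3 KO and -2.71 in Mettl14 KO. Its part in the Cox6a2 values was not tested. In the library with the highest muscle sum, Mettl3 KO replicate 5, Cox6a2 was at 1.95 CPM. Cox7a1, also a form of brown fat, was at 2.04, 1.41, 1.45, 1.68 and 2.07 CPM in Mettl3 KO, 1.17, 1.92, 1.45, 1.41 and 1.51 CPM in Mettl14 KO, against 1.43, 1.16, 0.833, 2.14 and 1.26 CPM in controls. Its log2 fold change was 0.29 ± 0.42 SE (adjusted p = 0.585) in Mettl3 KO and 0.08 ± 0.39 SE (adjusted p = 0.992) in Mettl14 KO. Relative to genes of like abundance it was at -0.55 in Mettl3 KO and 0.14 in Mettl14 KO. Its share of the Cox7a1 and Cox7a2 pair per kilobase was 8.97 ± 3.4% in Mettl3 KO, 5.89 ± 2.5% in Mettl14 KO and 4.83 ± 3.4% in controls. Cox8b reached no more than 0.955 CPM in any library and was at 0 in Mettl14 KO replicate 5. Cox8a, its common partner, was at 38.3 to 72.9 CPM in Mettl3 KO, 38.5 to 92.9 CPM in Mettl14 KO, against 39.5 to 111 CPM in control tumors.

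**Figure D5:**
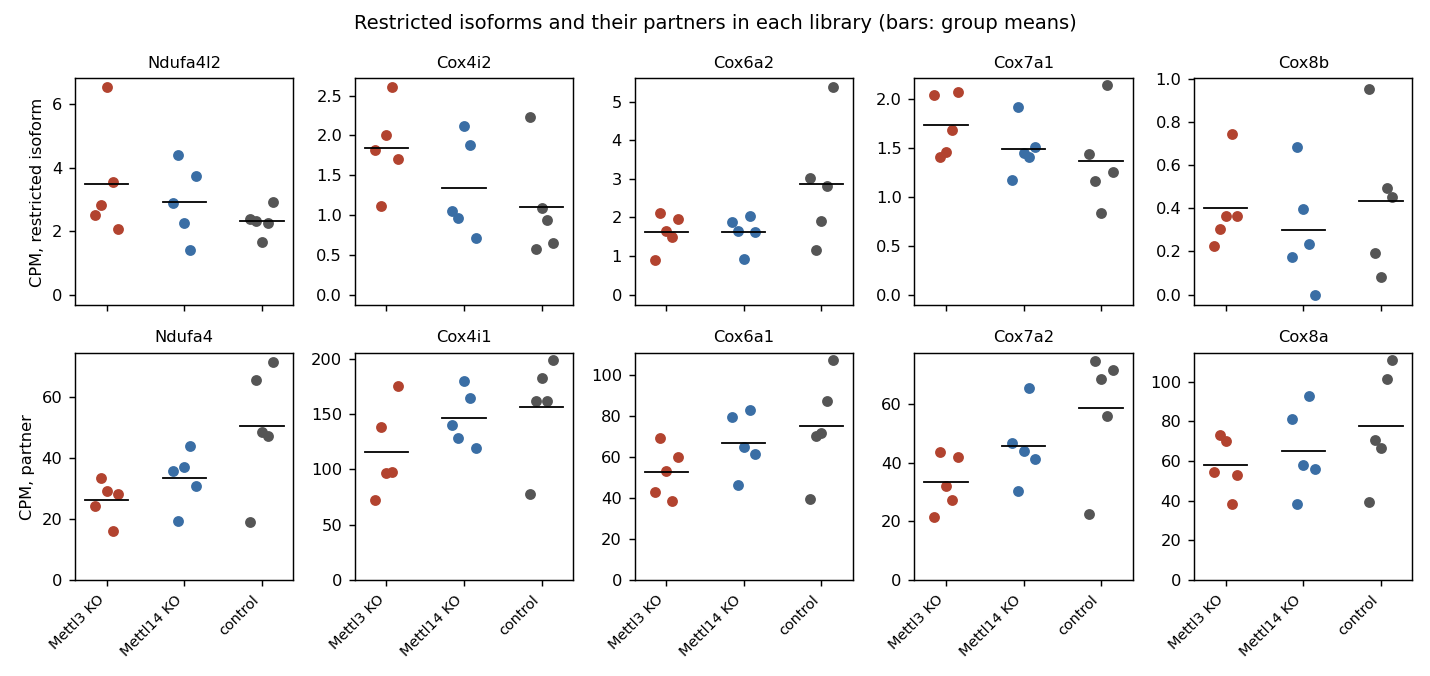
CPM of 5 tissue-restricted or hypoxia-linked forms (upper row) and of their common partners (lower row) in each Mettl3 KO, Mettl14 KO and control library; points are libraries, horizontal bars are group means, and the vertical scales differ between panels. The restricted forms stay under 7 CPM, and the partners run from 16.1 to 199 CPM.

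Complex V had the highest summed CPM of the complexes. Atp5b, the catalytic beta subunit, had the highest level of all members, at 358, 732, 556, 362 and 675 CPM in Mettl3 KO and 735, 412, 750.4, 765 and 616 CPM in Mettl14 KO, against 389.5, 757, 777, 811 and 1073 CPM in control tumors. Every Mettl3 KO library lay under controls 2 to 5, and control replicate 1 lay above only Mettl3 KO replicates 1 and 4. For Atp5b the log2 fold change was -0.57 ± 0.27 SE (adjusted p = 0.158) in Mettl3 KO and -0.25 ± 0.23 SE (adjusted p = 0.796) in Mettl14 KO. Per kilobase that was 127, 155 and 180 CPM per kb in Mettl3 KO, Mettl14 KO and control tumors. All 17 tested members were below 0 in both knockouts, with medians of -0.56 in Mettl3 KO and -0.27 in Mettl14 KO, and -0.05 and -0.12 relative to like abundance. In the catalytic head (Atp5a1, Atp5b, Atp5c1, Atp5d and Atp5e) the log2 fold changes in Mettl3 KO lay between -0.68 and -0.47, and in the peripheral stalk (Atp5f1, Atp5h, Atp5j and Atp5o) between -0.69 and -0.40.

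The proton-carrying ring of complex V is built from one mature protein encoded by 3 genes, and their levels differed. Atp5g3 was at 34.5, 75.7, 52.2, 36.6 and 69.9 CPM in Mettl3 KO and 86.2, 44.5, 68.8, 87.8 and 67.2 CPM in Mettl14 KO, against 41.1, 72.1, 84.0, 90.4 and 129 CPM in controls. Per kilobase Atp5g3 was at 24.7, 32.5 and 38.2 CPM per kb in Mettl3 KO, Mettl14 KO and control tumors. Atp5g2 was at 24.9, 26.3 and 29.2 CPM per kb, and Atp5g1 at 3.26, 4.39 and 4.32 CPM per kb in the same groups. Log2 fold changes in Mettl3 KO were -0.71 ± 0.28 for Atp5g3, -0.46 ± 0.21 for Atp5g1 and -0.30 ± 0.25 for Atp5g2 (SE, adjusted p from 0.117 to 0.365). The small membrane subunit Atp5l was the member of complex V least lowered in Mettl3 KO, at -0.20 ± 0.15 SE (adjusted p = 0.324), where genes of like abundance were at -0.45. It was at 34.9, 44.0, 41.5, 32.3 and 40.5 CPM in Mettl3 KO, against 31.99, 55.5, 50.0, 38.2 and 39.1 CPM in controls, with broad overlap.

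Other mitochondrial gene lists were read beside the members. The 10 tested mitochondrially encoded subunits were all below 0 in both knockouts and none was called by edgeR. Their median log2 fold changes were -1.22 in Mettl3 KO and -0.63 in Mettl14 KO, and -0.66 and -0.45 relative to like abundance. At an unadjusted p under 0.05, 7 were lower in Mettl3 KO (27% of all genes were) and 1 in Mettl14 KO (6.6% of all genes were). The summed CPM of these subunits was 4853 to 10590 in Mettl3 KO, 7265 to 16340 in Mettl14 KO and 9085 to 30640 in control tumors, where replicate 2 was the highest. Of 18 citric acid cycle genes none was called by edgeR in either knockout, with medians of -0.44 in Mettl3 KO and -0.12 in Mettl14 KO, and 0.03 and -0.01 relative to like abundance. At an unadjusted p under 0.05, 11 of the 18 were lower in Mettl3 KO, against 27% of all genes and 54.4% of genes of like abundance, and 0 in Mettl14 KO. Among 14 regulators of mitochondrial biogenesis none was called by edgeR (9 lower and 1 higher at an unadjusted p under 0.05 in Mettl3 KO, and 4 lower and 1 higher in Mettl14 KO). Over all genes 6918 of 21427 were under that threshold in Mettl3 KO, 5790 of them lower. In Mettl14 KO 2444 of 21555 were, 1422 of them lower. The 14 regulators had medians of -0.48 in Mettl3 KO and -0.16 in Mettl14 KO, and -0.03 and -0.04 relative to like abundance. Gabpa had -0.68 ± 0.20 SE in Mettl3 KO (adjusted p = 0.0614), and -0.14 relative to like abundance. Tfam, which packages and transcribes mitochondrial DNA, had -0.51 ± 0.15 SE there (adjusted p = 0.0579), and -0.06 relative. Ppargc1a, a coactivator of these genes, had 0.59 ± 0.46 SE (adjusted p = 0.342), and 0.74 relative. The 1 higher regulator was Ppargc1b in both knockouts, at 0.53 ± 0.215 SE in Mettl3 KO (adjusted p = 0.119). Among the marker lists of other cells, Krt20, the macrophage scavenger receptor Cd163 (-1.499 ± 0.20 SE, adjusted p = 0.0103) and 3 globin genes fell in Mettl3 KO tumors, and no list gene was called in Mettl14 KO. Of the 10 macrophage genes, 4 were below 0 in Mettl3 KO, with a median of 0.06 (0.57 relative to like abundance), Fcgr1 being at 0.88 ± 0.22 SE (adjusted p = 0.0523). Summed erythroid markers were 31.0 to 64.3 CPM in Mettl3 KO, 31.2 to 63.2 CPM in Mettl14 KO, against 68.3 to 301 CPM in control tumors. T cell markers summed to 63.4 to 209 CPM in Mettl3 KO, 37.6 to 318 CPM in Mettl14 KO, against 16.2 to 57.0 CPM in controls. The part of other cell types in the members' values was not tested.

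In the authors' deposited table for Mettl3, 3 of 76 members with an adjusted p were under 0.05, against 11.6% of 16160 genes in either direction. They were Ndufb11 (log2 fold change -0.76, adjusted p = 0.0300), Uqcrq (-0.69, adjusted p = 0.0423) and Atp5c1 (-0.55, adjusted p = 0.0450), and their signs matched those of the edgeR fit. The authors' deposited table for Mettl14 had 0 of 79 members under 0.05, against 2.98% of 16861 genes.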

How the data were processed

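RNA-seq gene counts of 15 CT26 tumor libraries (5 each of Mettl3 KO, Mettl14 KO and control) were analysed. The deposited counts are raw reads per Ensembl gene. The submitters' processing notes name the build mm10 and, among the authors' tools, HTSeq 0.11.2, HISAT2 2.1.0, DESeq2 and cutadapt 1.18. The authors' deposited tables also give a signal (the mean normalized count), log2 fold changes with standard errors, a score (the test statistic) and p-values with adjusted p-values. Their header does not state the direction. The control columns were identical in both count tables, and no replicates counted as one (smallest chi-square per gene 11.5 over 30 pairs).

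Genes were filtered with filterByExpr (minimum count 10), scaled by TMM and tested with edgeR 4.0.16 (glmQLFit, robust, Benjamini-Hochberg threshold 0.05) in R 4.3.3, each knockout with the controls, and Mettl3 KO against Mettl14 KO over all 15 libraries. DESeq2 1.42.0, limma voom (3.58.1), other scalings, other filters, a replicate block and the omission of each library in turn were the alternatives. The fit was also run on simulated counts with known changes, the same dispersion for every gene and no outlying library. That run does not bear on the calls that depend on control replicate 1. Like abundance means the median log2 fold change of the non-members in the same 1 of 50 abundance bins. Reads outside genes are the HTSeq reads on no feature, as a share of these, ambiguous and gene reads; they and other summary lines stayed out of library sizes. Gene models were GENCODE vM21.

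The members and gene lists were chosen with earlier results of these data known. Members given values were those called, the highest per kilobase and the lowest and highest log2 fold change of each complex, isoform pairs, the Sdh genes, the ring genes and the inhibitor (its symbol was not among the members). Ndufs1, Ndufs5, Ndufs8, Ndufb2, Ndufb11, Uqcr10, Uqcrq, Cox5b, Cox7a2l, Atp5c1, Atp5j2, Gabpa, Tfam, Ppargc1a, Ppargc1b, Epcam and Fcgr1 were added after their values were seen. The values of 1 member are not reported here.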

Additional observations from a re-analysis of the deposited data

Results flagged for a closer look

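In 102 checks of a group of 5 libraries, 7 had a highest or lowest library whose gap to the next exceeded 0.71 of the group's range, and chance flags about 1 in 20 groups. Among control tumors, replicate 1 was the low library in 4 of the 7. Its median deviation of the members was -0.52 (log2 scale), its summed complex I level was 883 CPM, Sdhd stood at 26.4 CPM and Sdhb at 23.2 CPM. In the same library Cox6b2, a testis form, was high at 1.59 CPM. Control replicate 2 was high for Uqcrb, the ubiquinone-binding subunit of complex III, at 82.4 CPM. Among Mettl3 KO tumors, replicate 4 was high for Cox8b at 0.747 CPM, a level of few reads.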

How the results depend on the processing

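In Mettl3 KO 0 members were called under other scalings and filters and with all 15 libraries in 1 fit, but 9 by DESeq2, 12 by limma voom and 36 with a replicate block (6002 of 21427 genes). Leaving out 1 library gave 0 to 38 calls in Mettl3 KO, the 38 (37 lower and 1 higher) without control replicate 1, and 0 to 2 in Mettl14 KO, the 2 also without control replicate 1. Between the knockouts 0 members were called under every alternative. The labels do not say whether equal replicate numbers pair the samples. Same-numbered deviations correlated at -0.31 to 0.62 for Mettl3 KO and control, over 0.1 in 3 of 5 pairs. For Mettl14 KO and control they correlated at -0.75 to 0.23, over 0.1 in 2 of 5 pairs. Such correlations cannot settle whether the samples were paired. The block left 0 calls in Mettl14 KO. The members' median stayed below 0 under all alternatives run. Leaving out 1 library it was -0.62 to -0.28 in Mettl3 KO (-0.09 to -0.03 relative to like abundance) and -0.33 to -0.14 in Mettl14 KO (-0.15 to -0.06 relative). Library totals gave -0.33 in Mettl3 KO and -0.03 in Mettl14 KO, where the median of all genes stood at 0.02 in Mettl3 KO and 0.07 in Mettl14 KO, against -0.14 and -0.09 under TMM.

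The loess offset put the Mettl3 KO median at -0.094 and changed the sign of Ndufa4l2 (-0.28), Sdhc (0.13), Uqcrb (0.053), Uqcrc1 (0.086), Cox4i1 (0.042), Cox4i2 (-0.36), Cox7a1 (-0.83), Cox8a (0.015), Atp5b (0.087), Atp5g2 (0.14) and Atp5l (0.21), since it removes the shift shared by each abundance range. In Mettl14 KO it did so for Sdha (0.020), Sdhb (0.0011), Sdhc (0.061), Uqcrc1 (0.059), Cox4i1 (0.018), Cox7a1 (-0.25) and Atp5g1 (0.070). Library totals changed the sign in Mettl14 KO for Sdha (0.067), Sdhb (0.061), Sdhc (0.13), Sdhd (0.017), Uqcrc1 (0.11), Cox4i1 (0.053) and Atp5g1 (0.15). One fit over 15 libraries did so for Sdhc (0.013) and Atp5g1 (0.020), and the replicate block for Atp5g1 (0.0029); the cause was not tested. Leaving out 1 library gave ranges across 0 for Atp5g2 (-0.49 to 0.0012) and Atp5l (-0.28 to 0.00342) in Mettl3 KO. In Mettl14 KO it did so for Sdhc (-0.16 to 0.11), Uqcrc1 (-0.19 to 0.10), Cox7a1 (-0.036 to 0.29) and Atp5g1 (-0.11 to 0.073). These sign changes and ranges cover the members named by rule and not those added later. Of the latter, Cox5b was at 0.046 in Mettl3 KO without control replicate 1. None of these was called in the edgeR comparison of all 10 libraries.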
